A study of Mus musculus with 2 samples.

Results

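The genes described here are the BMP, GDF, TGF-beta and SMAD genes of the mouse uterus, with the latent TGF-beta binding proteins, the ID genes and a few inhibitors of the pathway. They were taken by symbol from the deposited gene table, which lists 14678 genes, and 49 of these matched. The symbols include the Bmp, Bmpr, Gdf, Tgfb, Smad and Ltbp genes, Id1 to Id4, Nog, Bambi, Smurf1, Smurf2 and Pmepa1. The match on symbols uses no measured value. The match on names also takes in 5 genes that were grouped apart from the ligands, receptors, SMADs and other roles: Bmp1, Bmp2k, Tgfbi, Tgfb1i1 and Tgfbrap1.

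Uteri were collected at gestation day 2.5 from double transgenic females (VEGFtetO/tetO/beta-AKtg/wt) that were littermates 9 to 10 weeks old and had been mated with VEGFtetO/tetO males. In these mice 4 tet operator copies sit in the VEGF promoter, and a tetR-Krab fusion protein expressed from the β-actin promoter in all tissues binds them and represses VEGF. The Dox+ females were fed doxycycline at 200 mg/kg of chow, which releases the repressor (VEGF-normal). Dox- mice were taken off doxycycline at 3 to 4 weeks of age (VEGF-repression), so that the loss of VEGF and the absence of doxycycline cannot be told apart. Total RNA of 3 uteri was pooled for each condition and sequenced as 1 library by digital gene expression profiling, which counts short sequence tags and assigns them to genes. With 1 library per condition there is no replicate check, and each difference below is a difference between the 2 libraries. The copy number of a gene is the number of its tags, out of 5985925 clean tags in Dox+ and 5844314 in Dox-. Vegfa, the repressed gene, had 247 copies in Dox+ and 125 in Dox-, which was 1.93-fold lower (95% interval 1.55 to 2.41).

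Ligands of the TGF-beta superfamily are secreted dimers that bind pairs of type I and type II serine/threonine kinase receptors. TGF-beta ligands signal mainly through SMAD2 and SMAD3, and BMP ligands mainly through SMAD1, SMAD5 and SMAD9, and both kinds of receptor-regulated SMAD join SMAD4 in the nucleus. The ID genes are well known direct targets of BMP signaling, while SMAD6, SMAD7 and PMEPA1 act as feedback inhibitors. In the mouse uterus BMP2 is known for its part in decidualization of the stroma after the embryo attaches.

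To show regulatory sequence of genes in this set, the 250 bases before the start of transcription are given for Id2 and Ltbp3, which had the most copies among the members called lower and among those called higher by the rule given below. The sequences are from RefSeq on build GRCm38.p6, each 5′ to 3′ on the strand of its gene. Capitals mark GGCGCC, the GC-rich element bound by BMP-regulated SMADs, and GTCTAGAC, the palindromic SMAD-binding element. The Id2 window is chr12:25096093-25096342 on the minus strand, and the Ltbp3 window is chr19:5740650-5740899 on the plus strand.
Id2: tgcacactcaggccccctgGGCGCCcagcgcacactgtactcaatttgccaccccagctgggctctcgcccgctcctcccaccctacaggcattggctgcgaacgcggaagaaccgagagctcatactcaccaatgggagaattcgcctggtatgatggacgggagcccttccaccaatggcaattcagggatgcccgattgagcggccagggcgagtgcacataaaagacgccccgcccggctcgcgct
Ltbp3: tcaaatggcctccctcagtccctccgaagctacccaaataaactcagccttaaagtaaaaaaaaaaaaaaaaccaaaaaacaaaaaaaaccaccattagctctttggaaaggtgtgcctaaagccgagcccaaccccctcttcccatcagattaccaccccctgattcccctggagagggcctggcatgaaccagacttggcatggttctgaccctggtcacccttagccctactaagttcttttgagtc

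The Id2 window holds GGCGCC once, beginning 231 bases before the start, and the Ltbp3 window holds neither element. Of the 49 genes, 30 matched the RefSeq promoter table, with 40 windows reaching from 250 bases before to 50 bases after a start. GGCGCC, searched on both strands, was in 15 of these 40 windows (37.5%) and in 11.9% of all 32851 windows of the table. Some windows of the same gene overlap, as for Ltbp4 and Smad5, and each was counted. The member windows also had more G and C, with a median of 65.2% against 52.7%. GTCTAGAC was in 1 member window, that of Smad6 (2.5%, against 0.213% of all), and CAGACA, which holds the core of the SMAD-binding element, in 20% of member windows and 21% of all. Among the genes with a window, GGCGCC was found for 2 of 3 members called lower and 1 of 2 called higher. It was found for 5 of 9 compared and not called, and for 5 of 16 that were not compared. These matches are letters in a window and show no binding.

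The 49 genes together held 11026 tags in Dox+ and 10441 in Dox-, which were 0.248% of the assigned tags in each library. Their joint share was thus nearly the same while single genes moved in opposite directions. A gene was compared if its copies in the 2 libraries summed to 200 or more. A call of higher or lower required a 1.5-fold difference and a false discovery rate below 0.05 in the Audic-Claverie test, which takes counting error as the sole error. Higher and lower refer to Dox- relative to Dox+. The log2 ratios below are of Dox- over Dox+ per clean tag, and their 95% intervals cover counting error only. Of the 49 members 22 were compared, and 4 were called higher, 6 lower and 12 not. Of all 6547 genes compared, 29.9% were called, 15.2% higher and 14.7% lower. The median log2 ratio was 0.12 over the 22 members and 0.03 over all genes compared, and the median size of the ratio was 0.52 and 0.38.

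The members called higher were Pmepa1, Smad7, Gdf10 and Ltbp3. Those called lower were Id1, Id2, Smad1, Tgfbr3, Bmp1 and Tgfbrap1. A coefficient of variation (CV) was then assumed for the spread between pools of uteri. At a CV of 0.1 the same 10 genes were called by edgeR's exact test, beside 26.2% of all genes compared. At an assumed CV of 0.2 Pmepa1 alone was called, beside 4.9% of all genes compared, and at 0.4 no member was, beside 0.504%. The true spread cannot be estimated from 1 library per condition.

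**Figure D1:**
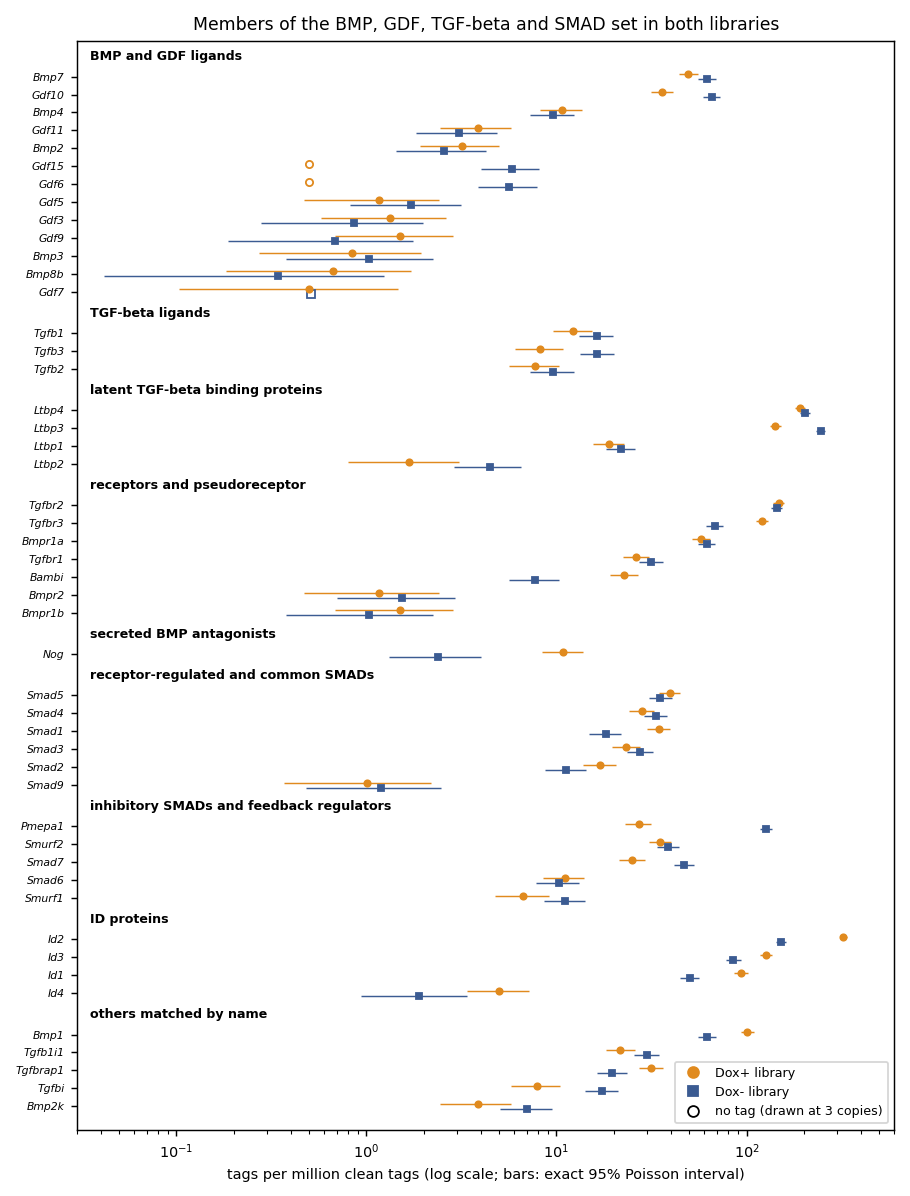
Level of the members reported here in tags per 1000000 clean tags (TPM, log axis) in the Dox+ library (circles) and the Dox- library (squares), grouped by role and ordered by copies, with exact 95% Poisson intervals as bars. Open symbols mark genes without a tag, drawn at the level of 3 copies. All 4 ID genes lie lower in Dox-, Pmepa1 lies far higher, and for genes under about 20 combined copies the bars of the libraries overlap.

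Most BMP and GDF ligands had few tags. Of the 13 ligands in the table only Gdf10 and Bmp7 reached the filter. Bmp5, Bmp6, Bmp8a, Bmp10, Bmp15, Gdf1 and Gdf2 were not listed in the gene table. Gdf10 (also called BMP3b; chromosome 14, 34736773 to 34749700 on mm9) had 215 copies in Dox+ and 384 in Dox-. It rose by a log2 ratio of 0.87 (95% interval 0.63 to 1.12). Bmp7, a ligand that acts in epithelia and in kidney and bone formation, had 296 and 363 copies, a log2 ratio of 0.33 (0.10 to 0.56). The 1.26-fold difference of Bmp7 was larger than counting error and below the fold threshold, and its interval lay apart from that of Gdf10.

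Among the ligands below the filter, Bmp4 had 64 copies in Dox+ and 56 in Dox-. Bmp2 had 19 and 15 copies and Gdf11 had 23 and 18, so that no difference was detectable for these 3 ligands at this depth. Gdf15 and Gdf6 were different, since they had no tag in Dox+ and 34 and 33 copies in Dox-. For counting error only, the exact 95% intervals put Gdf15, a stress-induced cytokine, at least 8.94-fold higher. They put Gdf6, a ligand of joint and eye development, at least 8.66-fold higher. Single-copy tags were discarded before deposit, so a count of 0 can hide them and these bounds can be too high. Set against a floor of 3 copies in Dox+, the ratios were 11.6 and 11.3. Gdf3, Gdf5, Gdf7, Gdf9, Bmp3 and Bmp8b had 0 to 10 copies in each library. Gdf9, an oocyte ligand, had 9 copies in Dox+ and 4 in Dox-.

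The 3 TGF-beta ligands were below the filter. Tgfb3 had 49 copies in Dox+ and 96 in Dox-, 2.01-fold higher (1.41 to 2.89), and it was called higher when the filter was set at 100 combined copies. Tgfb1 had 73 and 95 copies and Tgfb2 46 and 56. Both lay higher in Dox- by less than counting error, with log2 ratios of 0.41 (-0.04 to 0.88) and 0.32 (-0.27 to 0.91).

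Latent TGF-beta binding proteins are proteins of the extracellular matrix, and most of them, though not LTBP2, hold the inactive ligand there. Ltbp3 (chromosome 19, 5740904 to 5758532 on mm9) had 849 copies in Dox+ and 1435 in Dox-. It rose by a log2 ratio of 0.79 (0.67 to 0.92). Ltbp4, which also takes part in elastic fiber assembly, had 1144 and 1185 copies, 1.06-fold apart (0.977 to 1.15). Ltbp1 had 113 and 128 copies, a log2 ratio of 0.21 (-0.16 to 0.59), and the interval of Ltbp3 lay above those of Ltbp1 and Ltbp4. Ltbp2 had 10 and 26 copies, 2.66-fold higher with the wide interval of 1.24 to 6.19.

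Of the receptors, only Tgfbr3 was called. Tgfbr3 (betaglycan; chromosome 5, 107535589 to 107718648 on mm9), a coreceptor that presents TGF-beta2 and also binds inhibin, had 720 copies in Dox+ and 397 in Dox-. It fell 1.77-fold (1.56 to 2.01). The signaling receptors of TGF-beta had 884 and 841 copies for Tgfbr2, a log2 ratio of -0.04 (-0.18 to 0.10), and 157 and 184 for Tgfbr1, a log2 ratio of 0.26 (-0.05 to 0.58). The BMP type I receptor Bmpr1a had 344 and 361 copies, a log2 ratio of 0.10 (-0.11 to 0.32). The interval of Tgfbr3 lay apart from those of all 3 of these receptors. Bmpr1b had 9 and 6 copies and the type II receptor Bmpr2 had 7 and 9. Bambi, a receptor-like protein without a kinase domain that blocks signaling, had 136 copies in Dox+ and 45 in Dox-, 2.95-fold lower (2.09 to 4.23). It had 181 combined copies and was called lower when the filter was 100.

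Nog (noggin), a secreted antagonist that binds BMP ligands, had few copies. It had 65 copies in Dox+ and 14 in Dox-, 4.53-fold lower (2.52 to 8.75). Nog, Gdf6 and Gdf15 rest on fewer than 80 tags each.

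Smad1 was the only receptor-regulated SMAD that was called. Smad1 (chromosome 8, 81862294 to 81923417 on mm9) had 207 copies in Dox+ and 106 in Dox-. It fell by a log2 ratio of -0.93 (-1.28 to -0.59). Smad5, which carries the same BMP signal, had 236 and 206 copies, a log2 ratio of -0.16 (-0.44 to 0.11), and the intervals of Smad1 and Smad5 did not overlap. Smad3 of the TGF-beta branch had 139 and 161 copies and the common partner Smad4 had 168 and 195, with log2 ratios of 0.25 and 0.25 and intervals that held 0. Smad2 had 101 and 66 copies, 1.49-fold lower (1.09 to 2.07), just under the fold threshold and with fewer than 200 combined copies. Smad9 had 6 and 7 copies.

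Pmepa1 had the largest ratio of the 22 members compared. Pmepa1, a membrane protein that binds receptor-regulated SMADs and is itself induced by TGF-beta (chromosome 2, 173049959 to 173102034 on mm9), had 162 copies in Dox+ and 744 in Dox-. It rose 4.70-fold (3.96 to 5.61). Smad7, the inhibitory SMAD that competes for activated receptors, had 150 copies in Dox+ and 275 in Dox-. It rose 1.88-fold (1.53 to 2.31). Smad6, the inhibitory SMAD that acts mainly on BMP signaling, had 66 and 60 copies, a log2 ratio of -0.10 (-0.63 to 0.42). The ubiquitin ligases that target SMADs and receptors had 210 and 226 copies for Smurf2, a log2 ratio of 0.14 (-0.14 to 0.42), and 40 and 65 for Smurf1, which was 1.66-fold higher (1.11 to 2.53). The 5 genes of this group summed to 628 tags in Dox+ and 1370 in Dox-, a log2 ratio of 1.16 (1.02 to 1.30), with most of the gain in Pmepa1.

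**Figure D2:**
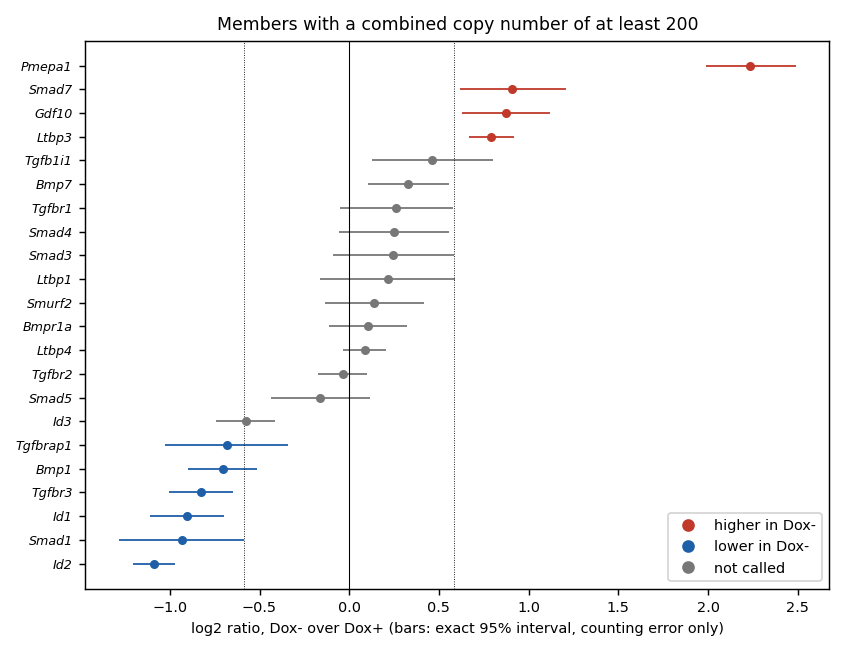
Log2 ratio, Dox- over Dox+, of the 22 members compared, with exact 95% intervals for counting error as bars. Dotted lines mark a fold change of 1.5. Pmepa1 at 2.23 stands alone above Smad7, Gdf10 and Ltbp3, and Id3 at -0.58 lies just inside the line.

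ID proteins lack a DNA-binding domain and block helix-loop-helix transcription factors. All 4 ID genes had fewer copies in Dox-, and 3 of them were compared, of which Id1 and Id2 were called lower. Id2 (chromosome 12, 25778666 to 25780957 on mm9) had 1933 copies in Dox+ and 888 in Dox-. It fell 2.13-fold (1.96 to 2.30). Id1 (chromosome 2, 152561987 to 152563146 on mm9) had 563 and 294 copies and fell 1.87-fold (1.62 to 2.16). Id3 (chromosome 4, 135699412 to 135701670 on mm9) had 761 and 498 copies, 1.49-fold lower (1.33 to 1.67), so that it missed the fold threshold narrowly while its interval excluded no difference. Id3 was called lower with TMM or median-ratio scaling and with an absolute log2 ratio above 0.5 in place of the 1.5-fold threshold. Id4 had 30 and 11 copies, 2.66-fold lower (1.30 to 5.89). The interval of Id2 lay below that of Id3, and that of Id1 overlapped both. Summed over the 4 genes there were 3287 tags in Dox+ and 1691 in Dox-, a log2 ratio of -0.92 (-1.01 to -0.84).

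The 5 other members matched by name also included called genes. Bmp1 is not a BMP but a metalloprotease that cleaves procollagen and the BMP antagonist chordin (chromosome 14, 70874364 to 70920067 on mm9). It had 606 copies in Dox+ and 363 in Dox- and fell by a log2 ratio of -0.70 (-0.90 to -0.51). Tgfbrap1, which encodes a protein that binds TGF-beta receptors (chromosome 1, 43104114 to 43155467 on mm9), had 189 and 115 copies and fell by a log2 ratio of -0.68 (-1.03 to -0.34). Tgfb1i1 (Hic-5), a focal adhesion adaptor, had 130 and 175 copies, a log2 ratio of 0.46 (0.13 to 0.80), under the fold threshold. Tgfbi, a matrix protein induced by TGF-beta, had 47 and 101 copies, 2.20-fold higher (1.54 to 3.18) and called higher with a filter of 100. Bmp2k, a kinase named for its induction by BMP2, had 23 and 41 copies.

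The filter left out 27 members, and without it 10 of these were called, 7 higher (among them Gdf6, Gdf15, Ltbp2, Smurf1, Tgfb3 and Tgfbi) and 3 lower (Bambi, Id4 and Nog). Over all 49 members 20 were then called, 11 higher and 9 lower, beside 28.1% of all genes in the table. By the Gene Ontology column of the table, 13 members belong to TGF-beta receptor signaling, of which 7 were compared, with Smad7 called higher and Tgfbr3 lower. Of 8 members assigned to BMP signaling, Smad7 alone was compared.

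**Figure D3:**
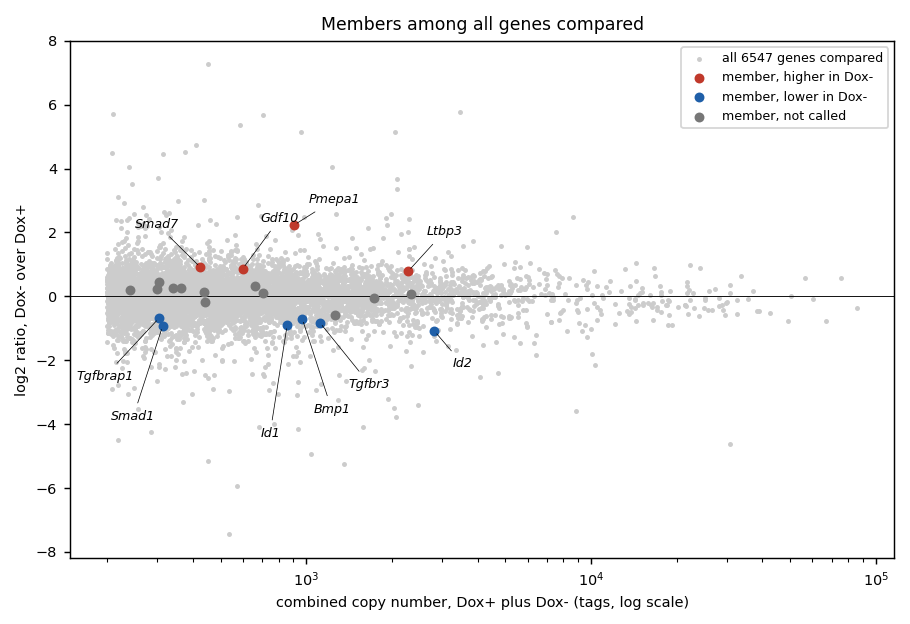
Log2 ratio, Dox- over Dox+, against the combined copy number (log axis) for all 6547 genes compared (grey), with the 22 members coloured by call and the 10 called members named. A library with 3 copies or fewer is set to 3. The members spread within the cloud of all genes, with Pmepa1 near its upper edge.

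Other genes of the pathway were taken from 5 lists of receptors, extracellular modulators, activators of latent TGF-beta, intracellular regulators and targets. Of 86 listed symbols that are no member, 77 were in the table, and Rnf111 was also listed under its alias Arkadia. Of the 77 genes 41 were compared, and 10 were called higher and 11 lower, beside the 29.9% of all genes. Their median log2 ratio was 0.01. None of the 3 further receptors compared was called: Neo1, a receptor of repulsive guidance molecules, had 324 and 262 copies in Dox+ and Dox-, its ligand Rgma, a BMP coreceptor, 282 and 220, and the type I receptor Acvr1 123 and 121.

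Extracellular modulators included 2 genes called higher and 3 lower of 9 compared, with a median of -0.37. Fst (follistatin), which binds activins and some BMPs, had 725 copies in Dox+ and 44 in Dox-. It fell by a log2 ratio of -4.01 (-4.48 to -3.57). Nbl1, a BMP antagonist of the DAN family, fell from 3943 to 2009 copies, and Bgn (biglycan), a matrix proteoglycan that binds TGF-beta, from 950 to 601. The serine protease Htra1 rose from 1172 to 2054 copies and Twsg1 (twisted gastrulation), which binds BMPs with chordin, from 264 to 432. Fstl1, a secreted glycoprotein related to follistatin, had 4617 and 3212 copies, a log2 ratio of -0.49, and was not called.

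Genes that hold or release latent TGF-beta were called in both directions, 2 higher and 3 lower of 7. Lrrc32 (GARP), which anchors latent TGF-beta at the cell surface, rose from 86 to 234 copies. Fbn1 (fibrillin-1), to whose fibers latent complexes attach, rose from 521 to 837. Pcsk5, a proprotein convertase, had 450 and 108 copies and fell by a log2 ratio of -2.02 (-2.34 to -1.72). Thbs1 (thrombospondin-1), an activator of latent TGF-beta, fell from 608 to 241, and Emilin1, which limits the processing of TGF-beta precursors, from 2162 to 1031. Itgav, the integrin subunit that binds latent TGF-beta, had 379 and 484 copies and was not called.

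Of 15 intracellular regulators compared, 4 were called higher and 2 lower. Skil (SnoN), a corepressor of SMADs that TGF-beta induces, rose from 105 to 243 copies, a log2 ratio of 1.25 (0.91 to 1.59). The related corepressor Ski had 1060 and 692 copies, a log2 ratio of -0.58 (-0.72 to -0.44), just short of the fold threshold. The corepressors Tgif1 and Tgif2 also went apart, as Tgif1 rose from 274 to 558 copies and Tgif2 fell from 274 to 125. The SMAD-interacting repressor Zeb2 rose from 292 to 440 copies, the phosphatase Ppm1a from 86 to 155, and the ubiquitin ligase Nedd4l fell from 221 to 140. Fkbp1a, which binds type I receptors, had 793 and 909 copies and the ubiquitin ligase Stub1 had 515 and 584, and neither was called.

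Among 7 listed targets compared, 2 were called higher and 3 lower. Junb, an AP-1 subunit, rose from 121 to 224 copies and Hes1, best known as a Notch target, from 83 to 215. Msx1, a homeobox gene of the uterus that responds to BMPs in other tissues, fell from 1757 to 727 copies, the matrix gene Postn (periostin) from 1334 to 325, and Klf10, an early TGF-beta response gene, from 328 to 191. The targets with the most copies, Tsc22d1 with 2513 and 2733 and the fibronectin gene Fn1 with 2034 and 2139, were not called. Without the filter on copies, 9 of the 20 listed targets were called higher and 4 lower, beside 13.9% and 14.2% of all genes in the table. The list therefore held targets of the pathway in each direction, and the split depended on the filter.

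**Figure D4:**
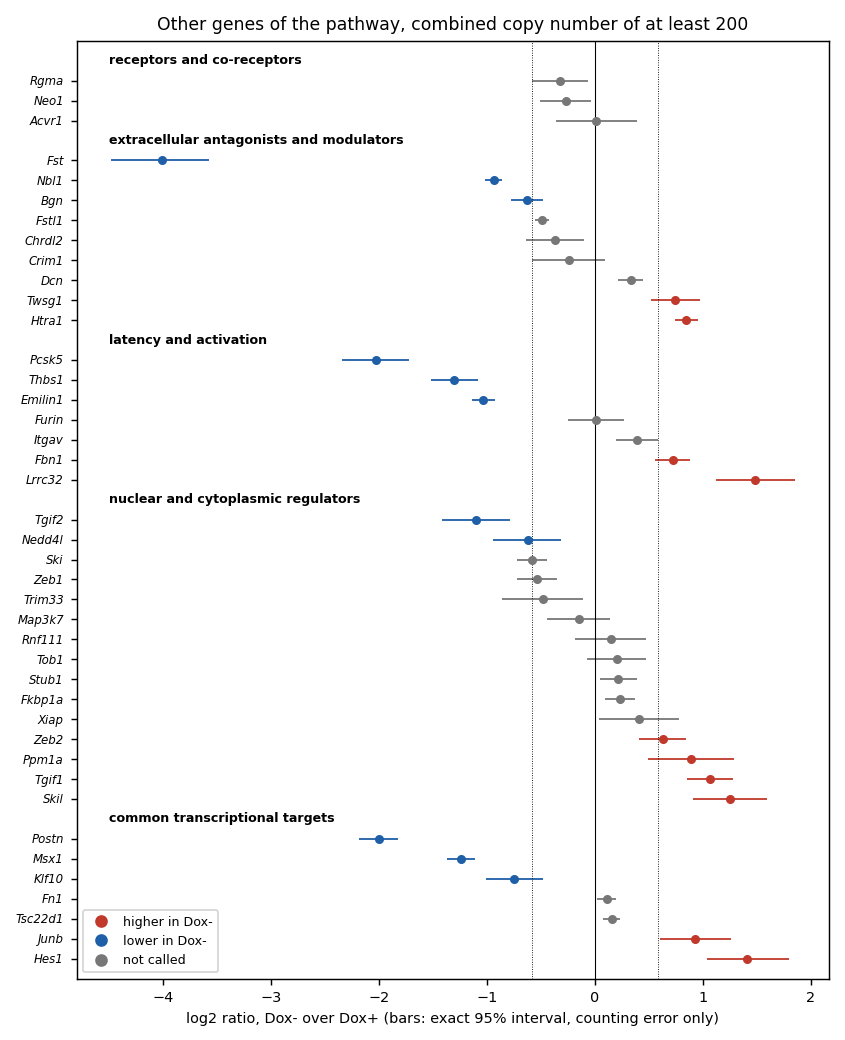
Log2 ratio, Dox- over Dox+, of the 41 other pathway genes compared, by list, with exact 95% intervals for counting error as bars and dotted lines at a fold change of 1.5. Fst at -4.01 lies lowest, and Lrrc32, Hes1 and Skil lie highest.

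Markers of the cell types and tissues that a dissected uterus can hold also differed between the pools. Summed tags of 11 epithelial markers went from 6454 in Dox+ to 11720 in Dox- (6 called higher, 1 lower; Sprr2f 904 to 2936, Krt19 1554 and 2046), and those of 9 leukocyte markers from 3268 to 5488 (1 of 3 compared called higher; Cd74 2742 to 4761, Csf1r 186 and 181). Most of the gain in leukocyte tags lay in Cd74. Without the filter 3 leukocyte markers were called higher and 1, Ncr1 (37 and 18), lower. Smooth muscle markers, 10 in the table and 9 compared, went from 48707 to 33794 tags (4 called lower, 0 higher; Tagln 11417 and 8854, Myl9 9564 and 7452), and 8 endothelial markers from 1270 to 843 (2 of 3 compared called lower; Cdh5 446 to 216, Pecam1 243 and 253). The 10 stromal markers went from 54207 to 67512 tags, with 2 called higher and 2 lower (Col1a1 23017 and 33696, Col3a1 18514 and 17098). The higher sum in Dox- was carried by Col1a1 and Col1a2 (4793 to 9627), as the median log2 ratio of the stromal markers was -0.24, 4 of 10 lay above 0, and Vim (2612 to 1680) and Hand2 (985 to 143) were called lower. Of 8 genes that mark the uterus all had tags in each library, with 2 called higher and 4 lower (Hoxa10 3120 to 1060, Hoxa11 2573 to 785). Skeletal muscle markers, 5 in the table, had 3897 and 1365 tags (Acta1 3385 to 1241, Tnni2 408 to 99, with Tnnc2 at 0 in Dox-), and 6 adipose markers 1351 and 721 (Car3 705 to 355, Fabp4 224 and 163). Markers of the oviduct (4 in the table, Pax8 114 to 207, Ccdc39 32 and 20) summed to 174 and 254 tags, and markers of the ovary and oocyte (5 in the table, Foxl2 104 to 198, Star 12 and 13) to 125 and 219, with Inha and Zp1 at 0 in Dox+ and Gdf9 a member itself. Hand2 and Nr2f2 stand in the lists of both uterus and stroma, and Msx1, Dcn and Eng in a marker list and a pathway list. In pooled tissue, fewer cells of a type and less RNA per cell cannot be told apart, and the part of these shifts in the calls of the BMP and TGF-beta genes was not tested.

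**Figure D5:**
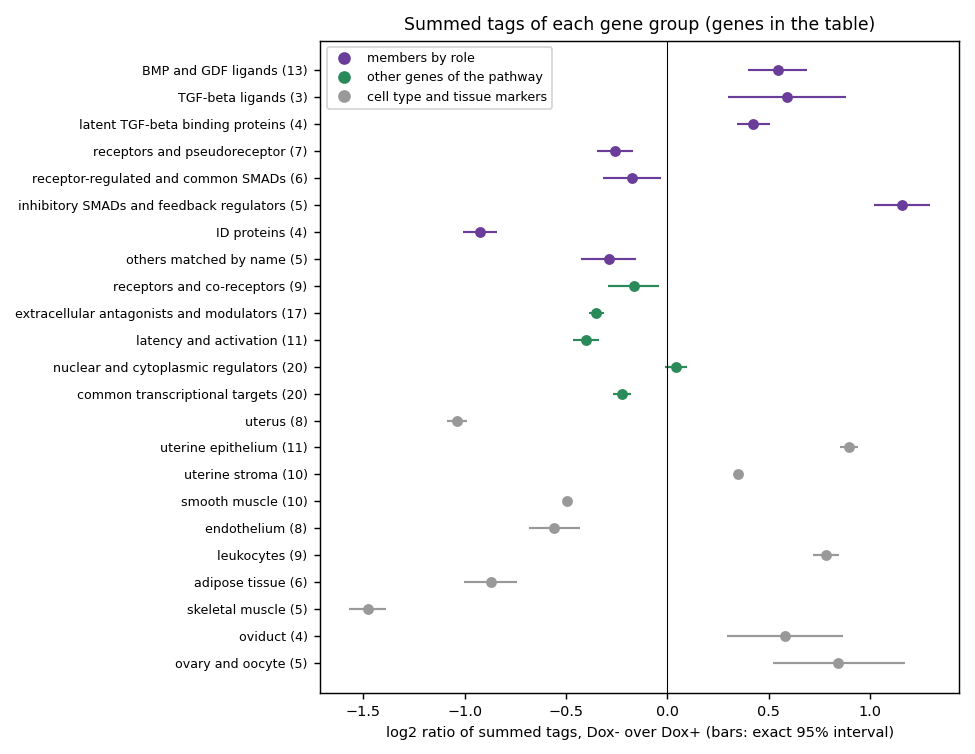
Log2 ratio, Dox- over Dox+, of the summed tags of the roles of the members reported here, each list of other pathway genes and each marker list, with the number of genes in the table and exact 95% intervals for counting error. The ID genes at -0.92 lie between the adipose markers at -0.87 and the uterus markers at -1.04, and the inhibitory SMADs and feedback regulators at 1.16 lie above the epithelial markers at 0.90. For the receptors, the receptor-regulated and common SMADs, the latency genes, the targets and the stromal markers, the summed ratio has the opposite sign to the median of the genes compared.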

How the data were processed

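One gene table of the whole series was used. Before deposit, the authors discarded tags that were adaptor alone, of low quality or single-copy and matched the remaining clean tags to mouse mRNAs of build mm9. They annotated the unambiguous tags and deposited tag counts per gene without normalization. The TPM values were deposited by the authors as counts per 1000000 clean tags, with no length correction and 0.01 for 0, and served here to recover the clean tags of each library. The labels mention mRNA fragmentation where the paper describes tag profiling, and the aligner and enzyme are not given in the sources used here. The authors' own log2 ratios, P-values and FDR were not used. The assigned tags were 4437506 in Dox+ and 4218459 in Dox-. In each library this is fewer than the unambiguous tags that the paper reports, and the reason is not given in the sources used here.

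Samples were grouped by title. Ratios are per clean tag, with exact Clopper-Pearson intervals at 95% from the split of a gene's tags, and a floor of 3 copies (0.501 and 0.513 TPM) where a library had no tag. The two-sided Audic-Claverie test was adjusted by Benjamini-Hochberg over all genes. It compares the 2 libraries, not the conditions. The members and lists were chosen with earlier results of these data known. The members are named, apart from a result that is not reported here, and of the lists the called genes and the 3 with the most copies, or 2 for markers. Alternatives were other filters, scalings, tests and thresholds and an assumed CV. Positions are from GENCODE on NCBIM37 (mm9), matched for all 49 genes. Exons of 9 members, 2 of them compared, overlap other annotated genes, and whether the deposited counts are of sense tags alone is not given in the sources used here. The methods were tested on simulated data. Python 3.11.15, numpy 2.4.6, scipy 1.17.1, pandas 2.3.3, matplotlib 3.10.9, R 4.3.3 and edgeR 4.0.16 were used.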

Additional observations from a re-analysis of the deposited data

How the results depend on the processing

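With 1 library per condition the spread between pools is unknown, and 27 of the 49 members had too few tags to be compared. The 10 members called became 20 without a filter on the combined copy number, 2 at a fold change of at least 2, and 1 and 0 in edgeR's exact test with an assumed CV of 0.2 and 0.4. For the other pathway genes the 21 calls became 37, 11, 6 and 1 under the same settings. For all genes the 1955 calls became 4121, 670, 321 and 33. The share of all genes tested that was called went from 29.9% to 28.1%, 10.2%, 4.9% and 0.504%. TMM, median-ratio and assigned-tag scaling, Fisher's exact test, a CV of 0.1, a filter of 100 and an absolute log2 ratio above 0.5 left 10 to 14 members called. The share of all genes tested that was called then lay between 26.2% (CV of 0.1) and 36.6% (absolute log2 ratio above 0.5). Under the 3 scalings and a pseudocount of 1 tag, 21 of the 22 members compared had the same direction. The exception, Tgfbr2, was not called and went from -0.04 to 0.0011 with assigned-tag scaling, and Id3 became called lower with TMM and median-ratio scaling and with an absolute log2 ratio above 0.5. The median log2 ratio of the members was between 0.09 and 0.16 under the 3 scalings, the filters and the pseudocount, and their mean was 0.05. No paired analysis was possible because each condition had 1 library.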
